A study of Mus musculus with 24 samples.

Results

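A set of 10 genes of mouse chromosome 14 that lie around Prxl2a were followed in mice with and without Prxl2a, which encodes a peroxiredoxin-like protein. They were chosen by symbol, as Tspan14, Sh2d4b, Dydc1, Mat1a, Mbl1, Sftpd, Nrg3, Ghitm, Cdhr1 and Anxa11, and make up 10 of the 19015 genes in the deposited table. All mice were female and 12 weeks old. The knockout (KO) mice lacked Prxl2a and the wildtype (WT) mice carried it, and both had been flushed with PBS to clear the blood. RNA was sequenced from inguinal adipose tissue (IAT), brown adipose tissue (BAT), brain and liver, with 3 KO and 3 WT libraries in each tissue. The design names 3 mice per group, so the tissues may share mice. The sources used here do not give the strain, the way the allele was made or the deleted bases. The question put to the genes was whether the KO chromosome differed from the WT chromosome in the expression of genes near the targeted one.

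A targeted allele is carried on a chromosome segment, and genes close to it are inherited together with it, from embryonic stem cells or from the founder strain. A deletion can also take away sequences that regulate a neighbouring gene. Either would be carried by every tissue of the mouse, but it can be seen in RNA only where the neighbouring gene is expressed.

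In the RefSeq annotation of GRCm38.p6, the build named in the submitters' processing notes, Prxl2a occupies chr14:40993735-41013833. The nearest gene of the table on the side of lower coordinates is Tspan14, 26.7 kb away, a tetraspanin that escorts the shedding protease ADAM10 to the cell surface. Sh2d4b, 91.4 kb away on that side, encodes an SH2 domain adaptor. On the side of higher coordinates the order is Dydc2 at 35.1 kb, Dydc1 at 59.0 kb, Mat1a at 91.2 kb, Sftpa1 at 118 kb, Mbl1 at 138 kb and Sftpd at 158 kb. Dydc1 and Dydc2 encode DPY30 domain proteins, and Mat1a encodes the liver methionine adenosyltransferase that makes S-adenosylmethionine. Sftpa1, Mbl1 and Sftpd encode collectins, secreted lectins that bind sugars on microbes. The remaining 4 genes lie on the lower side, with Nrg3, a neuregulin that binds ERBB4, at 1.52 Mb and Ghitm, an inner mitochondrial membrane protein, at 3.86 Mb. Cdhr1, a photoreceptor cadherin, lies at 3.90 Mb and Anxa11, a calcium-dependent phospholipid-binding annexin, at 15.1 Mb.

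The 250 bases before the start of the first listed transcript are shown for Prxl2a, its nearest expressed neighbour, the collectin Mbl1 and Anxa11. These genes span the broad and the liver-restricted patterns described next. Most of the Tspan14 window and the last bases of the Anxa11 window lie inside the annotated span of the gene. The sequences are from RefSeq (GRCm38.p6), which held a promoter entry for 8 of the 10 genes, and read 5′ to 3′ along the gene's strand. Capitals mark the GC box GGGCGG, searched on both strands.
Prxl2a, chr14:41013834-41014083, minus strand: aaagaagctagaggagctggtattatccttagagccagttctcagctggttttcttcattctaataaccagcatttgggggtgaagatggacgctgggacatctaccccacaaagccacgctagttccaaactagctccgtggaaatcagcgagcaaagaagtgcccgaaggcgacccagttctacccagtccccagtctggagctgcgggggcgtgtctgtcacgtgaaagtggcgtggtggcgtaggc
Tspan14, chr14:40966897-40967146, minus strand: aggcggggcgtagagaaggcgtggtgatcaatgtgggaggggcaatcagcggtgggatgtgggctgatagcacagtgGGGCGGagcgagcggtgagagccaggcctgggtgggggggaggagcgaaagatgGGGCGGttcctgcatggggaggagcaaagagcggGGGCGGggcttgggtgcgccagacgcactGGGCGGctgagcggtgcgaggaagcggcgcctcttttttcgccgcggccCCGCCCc
Mbl1, chr14:41151206-41151455, plus strand: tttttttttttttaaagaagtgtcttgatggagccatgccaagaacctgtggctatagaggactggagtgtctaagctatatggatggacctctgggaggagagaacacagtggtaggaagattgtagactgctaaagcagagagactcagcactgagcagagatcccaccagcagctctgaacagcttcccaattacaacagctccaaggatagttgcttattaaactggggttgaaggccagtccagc
Anxa11, chr14:25841905-25842154, plus strand: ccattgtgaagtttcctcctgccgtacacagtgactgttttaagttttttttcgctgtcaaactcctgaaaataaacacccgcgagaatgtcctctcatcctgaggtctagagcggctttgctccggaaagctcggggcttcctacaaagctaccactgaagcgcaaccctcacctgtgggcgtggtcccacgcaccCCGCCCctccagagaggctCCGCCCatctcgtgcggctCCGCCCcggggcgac
Tspan14 had 5 matches to the GC box and 22 CpG dinucleotides, Anxa11 had 3 matches and 17 CpG dinucleotides, and Prxl2a had 0 matches and 11 CpG. The Mbl1 window had 0 matches and 0 CpG. Of 27025 RefSeq windows of the same length, 32.9% held the GC box and the median CpG count was 6. The TATA box motif TATAAA, also searched on both strands, was in none of the 4 windows printed and in 13% of all windows. A match describes the letters and is no evidence of binding.

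Library totals ran from 12327459 to 18257788 counts. Prxl2a, given here as the check of the genotype labels, was in every tissue lower in each KO library than in each WT library, and the KO mean was 4.19% of the WT mean for IAT, 4.56% for BAT, 5.54% for brain and 1.98% for liver. Some IAT libraries stood apart. The summed level of 12 lymphocyte markers ran from 3.80 to 1858 CPM (counts scaled to library size, TMM-normalised within a tissue) in KO libraries and from 7.05 to 13.97 CPM in WT libraries, and that of 10 skeletal muscle markers from 6.98 to 41.8 CPM in KO and from 5.44 to 4208 CPM in WT. KO replicates 1 and 3 were the lymphocyte-rich libraries, with 137 and 71.2 CPM of the B cell gene Fcer2a against 0.84 CPM in KO replicate 2. The muscle-rich libraries were WT replicates 1 and 2, with 143 and 538 CPM of the troponin gene Tnnt3 against 0.96 CPM in WT replicate 3. The sum of 6 adipocyte markers ran from 10376 to 32865 CPM in KO IAT, highest in replicate 2, and from 16478.5 to 22619.3 CPM in WT IAT. That of 8 macrophage markers ran from 865 to 1025 CPM in KO IAT and from 1050 to 3815 CPM in WT IAT, without overlap. Libraries of BAT and brain differed too. Muscle markers ran from 2.14 to 106 CPM in KO BAT and from 1.49 to 1966 CPM in WT BAT. WT BAT replicate 1 was the highest, also for 8 macrophage markers (288 CPM). The sum of 7 striatum markers ran from 162 to 755 CPM in KO brains and from 207 to 1036 CPM in WT brains. The part of these differences in the results was not tested. Since these are bulk tissues, fewer cells of a type and less RNA per cell cannot be told apart.

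The 10 genes had 4 kinds of pattern in WT mice. Mat1a, Mbl1 and Sftpd were liver genes. In WT liver Mat1a stood at 2431 ± 258 TPM (transcript abundance scaled to library total and corrected for length), Mbl1 at 249 ± 19.1 TPM and Sftpd at 1.39 ± 0.095 TPM (SD, n = 3 each), and none of them exceeded 0.19 TPM in any WT library of the other tissues. Nrg3 and Cdhr1 were brain genes, with Nrg3 at 29.4 ± 0.46 TPM in WT brain and at most 0.02 TPM elsewhere. Cdhr1 averaged 10.8 TPM in WT brain with an SD of 12.5, as wide as the mean itself. Tspan14, Ghitm and Anxa11 were found in all 4 tissues, and Sh2d4b in all but liver, where it had 0.03 TPM. Dydc1 was close to absent, with 2 counts over all 24 libraries, both in WT brain.

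Among the broad genes, Ghitm was highest in WT BAT at 887 ± 56.4 TPM, followed by brain at 448 ± 42.4, IAT at 274 ± 32.2 and liver at 157 ± 7.07 TPM, with no overlap between tissues. On the CPM scale across the 12 WT libraries BAT was also first, but liver came second at 504 CPM and brain last at 382 CPM. Tspan14 was highest in IAT at 55.7 ± 1.76 TPM and lowest in liver at 11.5 ± 1.54 TPM. On the CPM scale IAT was also first at 68.9 CPM, close to BAT at 65.9 CPM, but brain was last at 29.3 CPM, below liver at 32.1 CPM. In TPM, BAT at 39.4 ± 3.11 and brain at 39.8 ± 3.30 TPM lay between and overlapped. Anxa11 was highest in IAT at 49.0 ± 4.57 TPM, and BAT at 35.3 ± 3.43 TPM and brain at 33.2 ± 6.30 TPM overlapped each other. In liver it had 26.7 ± 0.41 TPM, overlapping the range of brain, yet on the CPM scale liver was first at 68.7 CPM. Sh2d4b had 2.49 ± 0.56 TPM in IAT, 1.97 ± 0.30 in brain and 0.89 ± 0.37 in BAT, where IAT and brain overlapped. All 9 genes that could be tested differed between the WT tissues by edgeR's quasi-likelihood F-test with Benjamini-Hochberg adjustment, with adjusted p from 3.25e-12 for Mat1a to 0.000129 for Sftpd, as did 96.1% of all 15810 genes tested.

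**Figure D1:**
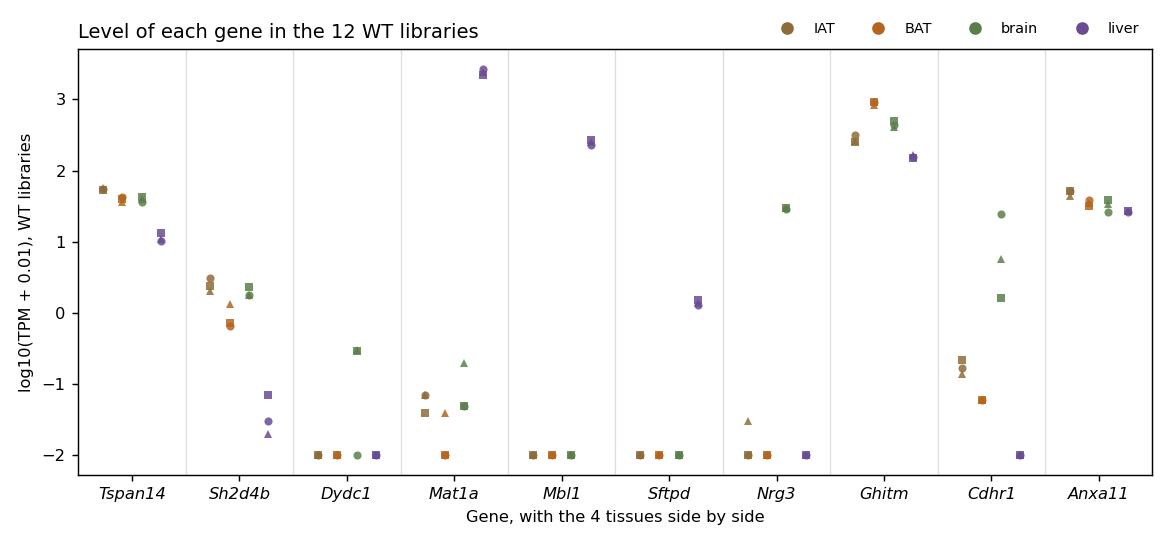
Level of the 10 genes in each of the 12 WT libraries, as log10(TPM + 0.01) on the vertical axis, with IAT, BAT, brain and liver side by side for each gene with circle, square and triangle for replicates 1, 2 and 3. Mat1a, Mbl1 and Sftpd stand up only in liver, Nrg3 in brain, while Tspan14, Ghitm and Anxa11 are high in all 4 tissues.

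KO was then compared with WT in each tissue, by edgeR's quasi-likelihood test on the expected counts with p adjusted over all genes tested and a call at an adjusted p under 0.05. The filter on low counts let into the test 4 of the 10 genes for IAT, 4 for BAT, 6 for brain and 6 for liver, which makes 20 tests over 9 genes, and Dydc1 was tested in none. Of the 20 tests 1 was called, Sftpd in liver, which fell, and 19 were not. Over all genes edgeR called 0% of 14097 in IAT (0% lower and 0% higher), 0.54% of 12588 in BAT (0.151% lower and 0.389% higher), 0.0487% of 14385 in brain (0.0348% lower and 0.0139% higher) and 1.11% of 12331 in liver (0.535% lower and 0.576% higher). Sftpd passed the filter through the WT livers alone, where it is higher, so its call is given as a value for 1 gene and nothing is read from its share of the 6 liver tests. In IAT 2226 genes had an unadjusted p under 0.05 and DESeq2 called 987, and Prxl2a itself missed the threshold there in edgeR (adjusted p = 0.0912). Among the 10 genes, an unadjusted p under 0.05 was found in 0 of 4 tests for IAT, 0 of 4 for BAT, 3 of 6 for brain and 2 of 6 for liver, against 15.8%, 18.5%, 6.58% and 16.1% of all genes. KO and WT libraries did not overlap in 1 of 4, 1 of 4, 3 of 6 and 2 of 6 tests, against 18.5%, 25.6%, 12.5% and 21.6% of all genes in the same order of tissues. Of these 7, which are counted in CPM, KO lay above WT in 6, namely 1 for IAT, 1 for BAT, 3 for brain and 1 for liver. KO lay below WT in 1, in liver. In TPM the groups overlapped for Tspan14 in BAT, Nrg3 in brain and Ghitm in liver, so these separations depend on the scale. Conversely, Mat1a in liver overlapped in CPM, but in TPM each KO library lay below each WT library. Among all genes, KO lay above WT in 8.81% for IAT, 14.3% for BAT, 6.54% for brain and 10.6% for liver, and below WT in 9.65%, 11.3%, 5.98% and 11% in that order. The tested genes had a median log2 fold change of 0.10 for IAT, 0.058 for BAT, 0.10 for brain and -0.018 for liver, and that of all genes was 0.018, -0.0058, -0.0015 and -0.0045.

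**Figure D2:**
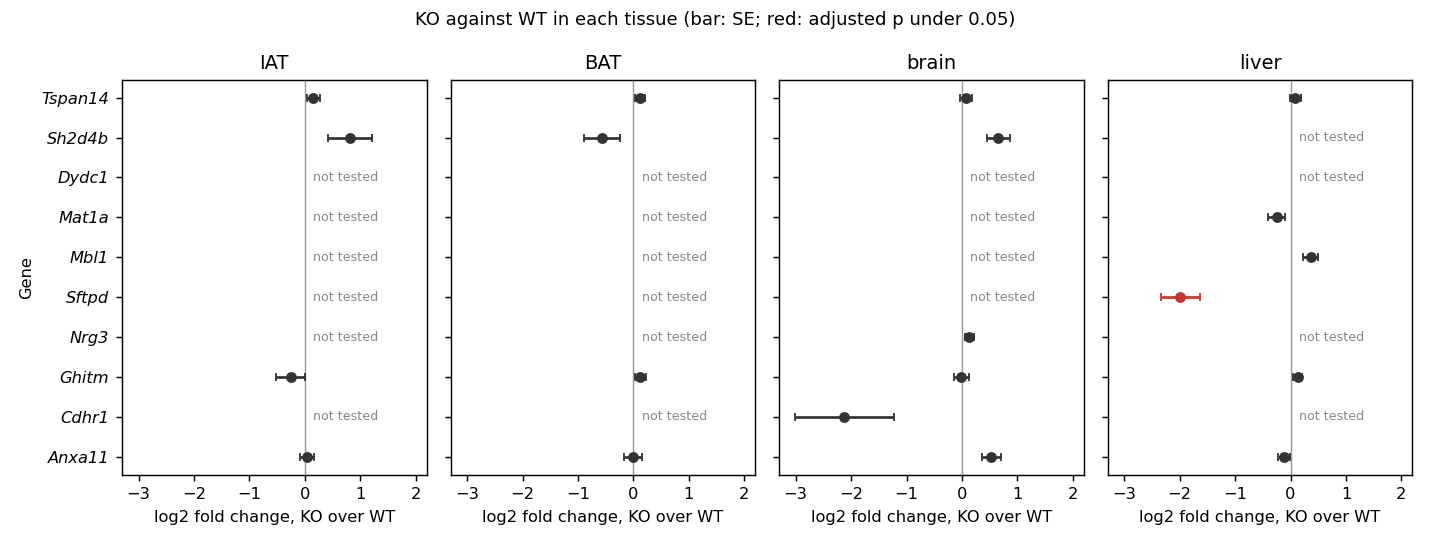
Log2 fold change of KO over WT for the 10 genes in each tissue, with bars of 1 SE, genes left out by the filter marked as not tested and red for an adjusted p under 0.05. Sftpd in liver is the only red point, Cdhr1 in brain has the widest bar, and Tspan14 and Ghitm sit near 0 in all 4 tissues.

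Tspan14, the nearest neighbour, had a slightly higher mean CPM in KO in every tissue and was called in none. In IAT it had 94.0, 103 and 97.8 CPM in KO libraries and 88.5, 84.5 and 91.6 CPM in WT libraries. In BAT the values were 74.9, 70.7 and 70.5 CPM in KO and 70.1, 68.7 and 60.4 CPM in WT. In both fat depots every KO library lay above every WT library, by a small margin in BAT, where the groups overlapped in TPM. Brain had 38.3, 42.9 and 42.4 CPM in KO and 35.3, 43.4 and 39.3 CPM in WT, and liver had 18.9, 19.5 and 21.1 CPM in KO and 17.5, 20.7 and 17.8 CPM in WT. These last groups overlapped, and in TPM the liver mean was 11.48 in KO and 11.53 in WT. The log2 fold changes were 0.16 in IAT (SE 0.11, edgeR adjusted p = 0.497), 0.12 in BAT (SE 0.086, adjusted p = 0.477), 0.068 in brain (SE 0.11, adjusted p = 0.915) and 0.087 in liver (SE 0.10, adjusted p = 0.725). Averaged over the 4 tissues in 1 fit of all 24 libraries, the change was 0.098 (SE 0.049, edgeR adjusted p = 0.286).

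Sh2d4b differed in direction between tissues and passed in none. In IAT it had 7.87, 20.6 and 12.7 CPM in KO libraries and 9.89, 7.68 and 5.74 CPM in WT libraries. KO replicate 2, also the IAT library richest in adipocyte markers, was the high library, and the lowest KO library lay inside the WT range. This is a log2 fold change of 0.82 (SE 0.40, edgeR adjusted p = 0.354). In brain it had 6.47, 9.37 and 7.53 CPM in KO and 4.43, 6.01 and 4.36 CPM in WT, with every KO library above every WT library. There the log2 fold change was 0.66 (SE 0.21, unadjusted p = 0.0142, edgeR adjusted p = 0.737). In BAT the values were 1.97, 2.76 and 2.05 CPM in KO and 2.90, 2.35 and 4.78 CPM in WT, which overlapped, with a log2 fold change of -0.56 (SE 0.32, edgeR adjusted p = 0.382). Liver held 3, 6 and 0 counts in KO and 3, 5 and 1 counts in WT and was not tested. The difference of the KO change between tissues was not called for Sh2d4b (edgeR interaction adjusted p = 0.408).

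Of the DPY30 domain pair on the other side, Dydc1 had 0 counts in every KO library of the 4 tissues. The same gene had 0, 1 and 1 counts in WT brain and 0 in the other WT libraries. Dydc2 was seen in brain alone, with 5, 4 and 5 counts in KO and 5, 7 and 5 counts in WT. These 2 genes overlap in the annotation, and counting by strand is not given in the sources used here, so their few reads cannot be assigned with certainty. A count of 0 in brain allows up to 0.189 CPM in the shallowest library.

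Mat1a was the most abundant of the 10 genes and was not called in liver. It had 4642, 4100 and 5168 CPM in KO livers and 6283, 4762 and 5476 CPM in WT livers. The means were 4637 ± 534 CPM in KO and 5507 ± 761 CPM in WT (SD, n = 3 each), and the groups overlapped in CPM. In TPM they did not, with 1927, 1711 and 2153 in KO livers and 2700, 2185 and 2409 in WT livers. The log2 fold change of Mat1a was -0.25 (SE 0.15, edgeR adjusted p = 0.466). Outside liver Mat1a was near the floor, with 0 counts in all KO libraries of IAT and 2, 1 and 2 counts in those of WT. Of 14 other genes of the methionine cycle, the filter kept 11 for IAT, 12 for BAT, 11 for brain and 14 for liver, and 0 were called in any tissue. Mtr, the methionine synthase, averaged 23.0 ± 2.46 CPM in KO BAT and 29.5 ± 2.90 CPM in WT BAT, without overlap, with a log2 fold change of -0.36 (SE 0.12, edgeR adjusted p = 0.187). Mat2a, the methionine adenosyltransferase of tissues other than liver, averaged 491 ± 72.6 CPM in KO BAT and 374 ± 19.9 CPM in WT BAT, without overlap, with a log2 fold change of 0.39 (SE 0.11, edgeR adjusted p = 0.158).

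The collectin genes at the far end of the cluster did not move together. Sftpd, the lung collectin SP-D, fell in liver, where its WT level was already near the limit of detection. It had 3, 5 and 5 counts in KO livers, which is 0.171, 0.287 and 0.283 CPM, and 17, 20 and 17 counts in WT livers, which is 0.982, 1.03 and 0.990 CPM. Every KO library was below every WT library, with little spread within either group. The log2 fold change was -1.99 (SE 0.35, edgeR adjusted p = 0.0410), and Sftpd stood at rank 102 of the 137 genes called in liver. The call was lost when any single liver library was left out, with log2 fold changes from -2.11 to -1.78 and edgeR adjusted p from 0.0846 to 0.123, and with all 24 libraries in 1 fit (adjusted p = 0.721). Epcam, an epithelial adhesion gene, fell in the same livers, with 16, 26 and 27 counts in KO and 60, 60 and 58 counts in WT and a log2 fold change of -1.33 (SE 0.24, edgeR adjusted p = 0.0410). Of the 8 genes of the mammary epithelial marker list in the table, 4 or 5 were above 0 in each liver library, their summed level was 184 to 220 CPM in KO and 211 to 256 CPM in WT, and Krt5, Krt14 and Csn3 were at 0. That sum is mostly the keratins Krt8 and Krt18, which were not called (edgeR adjusted p = 0.316 and 0.415). Krt19, another epithelial keratin, had 1.03 to 2.26 CPM in KO livers and 1.51 to 2.06 CPM in WT livers, so it did not pass with Epcam (edgeR adjusted p = 0.805). The markers' part in the Sftpd result was not tested.

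In IAT, where Sftpd was left out of the test, 2 of the 3 KO libraries held it. It had 0, 78 and 48 counts in KO libraries, or 0, 4.92 and 2.77 CPM, and 0 counts in each WT library, where 3 counts correspond to at most 0.197 CPM. The groups overlapped at 0, and an exact two-sided permutation test on log2 CPM gave p = 0.4, where 3 libraries against 3 cannot go below 0.1. With all 24 libraries in 1 edgeR fit, Sftpd passed the filter and was called higher in KO IAT (adjusted p = 0.0199), while 1 of the 3 KO libraries was at 0. It passed that filter through the WT livers and the 2 KO IAT libraries where it is high. That fit also called many IAT genes, where the fit of IAT alone called none, so nothing is read from this call. KO replicate 1, the library richest in lymphocyte transcripts, held none, and KO replicate 2, the poorest, held the most. The sum of 6 adipocyte markers had the same order as Sftpd over KO replicates 1, 2 and 3, at 10376, 32865 and 19797 CPM. In WT IAT that sum ran from 16478.5 to 22619.3 CPM. The part of these markers in the Sftpd values was not tested. The summed epithelial markers ran from 308 to 478 CPM in KO IAT and from 447 to 720 CPM in WT IAT. In BAT and brain Sftpd was at 0 in all 12 libraries.

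Mbl1, a serum mannose-binding lectin made by hepatocytes, had 132, 197 and 185 CPM in KO livers and 126, 140 and 135 CPM in WT livers. KO replicates 2 and 3 lay above all WT livers and KO replicate 1 lay within their range. Mbl1 had a log2 fold change of 0.36 (SE 0.14, unadjusted p = 0.0298, edgeR adjusted p = 0.248), opposite in sign to that of its neighbour Sftpd. Mbl2, the second mannose-binding lectin, lies outside the region and averaged 705 ± 61.1 CPM in KO livers and 714 ± 25.1 CPM in WT livers, with a log2 fold change of -0.019 (SE 0.10, edgeR adjusted p = 0.955). Sftpa1, the collectin gene between Mat1a and Mbl1, had 50, 104 and 55 counts in KO livers and 51, 51 and 75 counts in WT livers, which overlapped (log2 fold change 0.27, SE 0.32, edgeR adjusted p = 0.733). Of the 9 other genes of the collectin and lectin pathway list, the filter kept 4 for IAT, 2 for BAT, 2 for brain and 8 for liver, and 0 were called. Masp1, a protease of the lectin pathway, averaged 1.78 ± 0.31 CPM in KO IAT and 5.31 ± 1.68 CPM in WT IAT without overlap, with a log2 fold change of -1.57 (SE 0.33, edgeR adjusted p = 0.214).

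**Figure D3:**
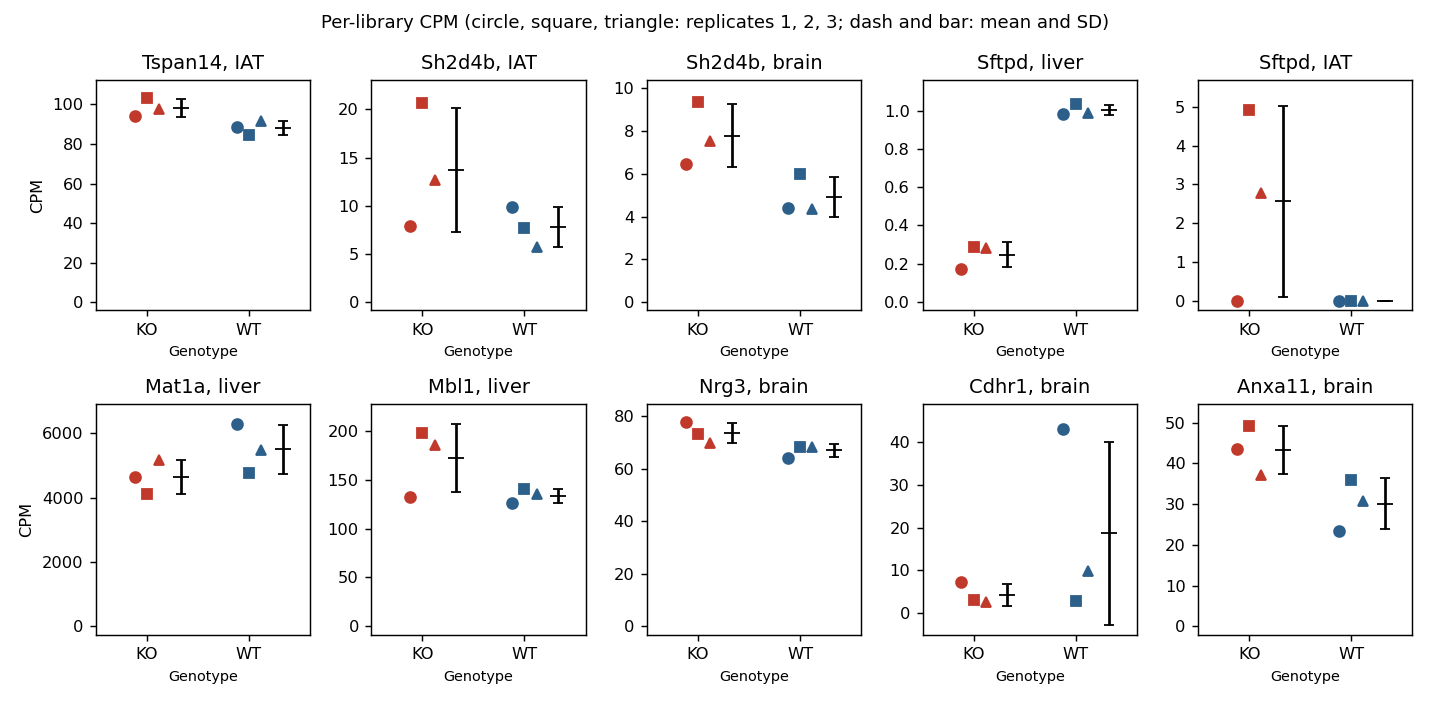
CPM per library for selected genes and tissues, KO in red on the left of each panel and WT in blue on the right, with circle, square and triangle for replicates 1, 2 and 3 and a dash with a bar for mean and SD. Sftpd in liver separates cleanly at under 1.1 CPM, Cdhr1 in brain is set apart by WT replicate 1 at 43.0 CPM, and Sftpd in IAT is above 0 in 2 KO libraries.

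Of the genes further down the chromosome, Nrg3 had 77.7, 73.2 and 69.9 CPM in KO brains and 64.1, 68.4 and 68.5 CPM in WT brains. All KO brains were above all WT brains, though KO replicate 3 by a narrow margin, and in TPM the groups overlapped. The log2 fold change of 0.14 (SE 0.080) did not pass (edgeR adjusted p = 0.776). Of the 7 other neuregulin and receptor genes, 5 to 7 were tested in a tissue and 0 were called. The smallest p among them was that of Erbb3, a neuregulin receptor, in BAT, with 4.97 ± 0.44 CPM in KO and 8.84 ± 0.82 CPM in WT and a log2 fold change of -0.83 (SE 0.16, edgeR adjusted p = 0.0786). Erbb4, the receptor of NRG3, averaged 103 ± 15.2 CPM in KO brains and 97.0 ± 8.21 CPM in WT brains (log2 fold change 0.084, SE 0.12, edgeR adjusted p = 0.911).

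Ghitm, which shapes the cristae of mitochondria, was called in no tissue. In liver it had 332, 310 and 317 CPM in KO and 303, 270 and 307 CPM in WT, with KO above WT throughout in CPM but not in TPM. In IAT it had 305, 556 and 396 CPM in KO and 570, 450 and 480 CPM in WT, and the groups overlapped. The log2 fold changes were 0.13 in liver (SE 0.089, edgeR adjusted p = 0.530), -0.25 in IAT (SE 0.26, adjusted p = 0.618), 0.12 in BAT (SE 0.097, adjusted p = 0.504) and -0.010 in brain (SE 0.13, adjusted p = 0.992). The IAT value was 0.16 without the lymphocyte-rich KO replicates 1 and 3, an unplanned setting. It leaves 1 KO library, assumed to vary like the WT libraries. That library was also the richest in adipocyte markers, with 32865 CPM against 10376 and 19797 CPM in KO replicates 1 and 3. The part of either marker list was not tested. The KO change of Ghitm averaged over tissues was not called (-0.012, SE 0.088, edgeR adjusted p = 0.99996).

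Cdhr1 had the fold change of largest size among the 20 tests, with the largest SE, and was not called. It had 7.28, 2.95 and 2.57 CPM in KO brains and 43.0, 2.89 and 9.93 CPM in WT brains. WT replicate 1 was far above the rest, and the other WT brains overlapped the KO brains. The log2 fold change was -2.12 (SE 0.89, edgeR adjusted p = 0.749), and -0.58 without WT replicate 1 (adjusted p = 0.970). Of 6 markers of the olfactory bulb, where Cdhr1 is expressed in mitral cells, 4 were highest in that library and 2 were not. Doc2g, a mitral cell gene, had 27, 36 and 58 counts in KO brains and 296, 42 and 45 counts in WT brains, and Eomes had 10, 3 and 6 counts in KO and 89, 3 and 2 counts in WT. Tbx21 had 1, 2 and 0 counts in KO brains and 16, 0 and 0 in WT brains, and Th had 13, 25 and 20 counts in KO and 121, 49 and 13 in WT. The other two went the other way at their peak, with Calb2 at up to 84.0 CPM in KO brains and 43.4 CPM in WT brains and Gng13 at up to 10.2 CPM in KO and 9.78 CPM in WT. The sum of all 6 was 21.6 to 91.7 CPM in KO brains and 24.4 to 82.0 CPM in WT brains, highest in KO replicate 1, and its part in the Cdhr1 result was not tested. In IAT Cdhr1 had 62, 3 and 27 counts in KO and 7, 10 and 6 counts in WT, highest in the lymphocyte-rich KO replicates 1 and 3. An exact two-sided permutation test there gave p = 0.4, with a smallest possible p of 0.1. Without KO replicate 2, its lowest KO library, Cdhr1 entered the edgeR test in IAT through the 2 lymphocyte-rich KO libraries where it is high (log2 fold change 2.42, adjusted p = 0.0329), and that call supports nothing, since the filter and the omission decided it.

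Anxa11 passed in no tissue and differed most in brain. It had 43.6, 49.1 and 37.3 CPM in KO brains and 23.5, 36.0 and 30.9 CPM in WT brains. All KO brains were above all WT brains, KO replicate 3 only just. The log2 fold change was 0.52 (SE 0.17, unadjusted p = 0.0164) and did not pass over all genes (edgeR adjusted p = 0.749). It was 0.045 in IAT (SE 0.13, edgeR adjusted p = 0.870), -0.0018 in BAT (SE 0.16, adjusted p = 0.996) and -0.12 in liver (SE 0.11, adjusted p = 0.626). In the fit of all 24 libraries, 0 of the 4 members tested in several tissues had a KO change called as differing between them, against 0.421% of all 16169 genes. The lowest edgeR interaction p was that of Anxa11 (unadjusted 0.0479, adjusted p = 0.259), and 18.9% of all genes had an unadjusted p under 0.05. The average KO change was called for 0 of the 3 members tested in all tissues, against 3.19% of all genes. Of 8 other annexins, 0 were called in any tissue. Anxa5 averaged 63.7 ± 3.97 CPM in KO livers and 80.4 ± 2.71 CPM in WT livers without overlap, with a log2 fold change of -0.34 (SE 0.078, edgeR adjusted p = 0.0891).

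The remaining family lists gave no call either. Over all 8 lists, 52 genes gave 173 tests, of which 0 were called lower, 0 were called higher and 22 had an unadjusted p under 0.05, where the share over all genes was 15.8% in IAT, 18.5% in BAT, 6.58% for brain and 16.1% for liver. Among the tetraspanins that partner ADAM10, Tspan15 averaged 2.38 ± 0.20 CPM in KO livers and 3.998 ± 0.39 CPM in WT livers (log2 fold change -0.75, SE 0.18, edgeR adjusted p = 0.0934). Tspan33, of the same group, differed the other way, with 7.64 ± 1.55 CPM in KO livers and 4.73 ± 0.55 CPM in WT livers (log2 fold change 0.69, SE 0.18, edgeR adjusted p = 0.120). Tspan15 in BAT also had the other sign, with 35.9 ± 3.13 CPM in KO and 27.8 ± 3.13 CPM in WT (log2 fold change 0.37, SE 0.11, edgeR adjusted p = 0.168). Adam10 itself averaged 26.0 ± 0.82 CPM in KO livers and 29.3 ± 2.48 CPM in WT livers (log2 fold change -0.17, SE 0.090, edgeR adjusted p = 0.392). Sh2d4a, the paralogue of Sh2d4b, averaged 8.20 ± 1.84 CPM in KO livers and 13.0 ± 0.79 CPM in WT livers (log2 fold change -0.66, SE 0.16, edgeR adjusted p = 0.103).

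All other genes near Prxl2a were then set beside these 10. Within 5 Mb the table has 62 genes besides Prxl2a, of which edgeR tested 14 for IAT, 17 for BAT, 16 for brain and 18 for liver. Sftpd in liver was the only one called in any tissue, and it was also the called gene nearest to Prxl2a on the higher side. This is 5.56% of 18, against 1.11% of all genes in liver. Since Sftpd passed the filter through the WT livers alone, nothing is read from that share. Within 5 Mb the median absolute log2 fold change was 0.30 for IAT, 0.25 for BAT, 0.10 for brain and 0.17 for liver, against 0.28, 0.17, 0.12 and 0.14 over all genes. Widening the distance to 20 Mb gave 398 genes. Of these, 2 were called in BAT (0.851% of 235, against 0.54% of all genes). In liver 4 were called, with Sftpd among them (1.69% of 237, against 1.11% of all genes).

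On the lower side the called gene nearest to Prxl2a was Plac9b, 14.8 Mb away. It had 22.6, 52.3 and 25.7 expected counts in KO livers and 116, 138 and 83.7 in WT livers, with every KO liver below every WT liver. Its log2 fold change of -1.70 passed (SE 0.30, edgeR adjusted p = 0.0403), and its KO libraries lay below its WT libraries in all 4 tissues. How many of all genes do so was not counted. In WT IAT Plac9b had 60.0, 157 and 178 CPM beside 1050, 2910 and 3815 CPM of summed macrophage markers. The order of replicates was also shared in WT BAT, but not in KO IAT, KO BAT, brain or liver. The part of these markers in the Plac9b values was not tested. Plac9b sits among near-identical copies of Plac9 and Tmem254, its counts are fractional, and RSEM could split reads between the copies, so the value of any single copy is uncertain. Across 6 genes of that block, picked after the values were seen and with Plac9b itself among them, 20 of 21 log2 fold changes were below 0. Only 1 was called, in liver, where 1.11% of all genes were called. The copies may share reads, so these are not 21 separate observations, and nothing is read from the count of signs. The Duxbl and Cphx genes that lie among the copies were not in that count. Duxbl1 had log2 fold changes of 0.055 in IAT and 1.13 in brain. Those of Duxbl2 were -0.16 and -1.94, and Cphx1 had -0.47 in liver. Anxa11, a neighbour of the block, also had fractional counts in most libraries.

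Lrmda, Pck2 and Gm43305 were the other called genes within 20 Mb and are named because of their values. Lrmda, a melanocyte differentiation gene 17.9 Mb away on the lower side, had 13, 14 and 5 counts in KO BAT and 77, 74 and 93 counts in WT BAT, and passed with a log2 fold change of -2.85 (SE 0.34, edgeR adjusted p = 0.0192). In IAT it had 17, 29 and 17 counts in KO and 205, 147 and 181 counts in WT, which did not overlap (log2 fold change -3.11, SE 0.36, edgeR adjusted p = 0.110). In brain it had 3, 2 and 2 counts in KO and 4, 5 and 8 in WT, and in liver 0, 0 and 0 in KO and 21, 22 and 8 in WT. The liver level was at least 5.49-fold lower in KO, taking 3 counts per library as the floor, with an exact two-sided permutation p of 0.1, the smallest possible. Each KO library thus lay below each WT library in all 4 tissues, and how many of all genes do so was not counted. The BAT call was lost without KO replicate 2 (edgeR adjusted p = 0.0842), without WT replicate 2 (0.0565) or without WT replicate 3 (0.102).

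On the higher side, Pck2, the mitochondrial phosphoenolpyruvate carboxykinase at 14.5 Mb, had 24.4, 18.9 and 20.2 CPM in KO BAT and 37.7, 41.1 and 46.7 CPM in WT BAT. It was called lower in KO in BAT (log2 fold change -0.98, SE 0.13, edgeR adjusted p = 0.0246) and in liver (-1.22, SE 0.18, adjusted p = 0.0162). Its log2 fold change was -0.049 in IAT (edgeR adjusted p = 0.870) and 0.043 in brain (adjusted p = 0.979). The predicted gene Gm43305, at 13.3 Mb, had 1218, 1315 and 1560 CPM in KO livers and 297, 250 and 341 CPM in WT livers. Its log2 fold change was 2.203 and passed (SE 0.15, edgeR adjusted p = 0.000184). Its KO libraries lay above its WT libraries in all 4 tissues, again without a count over all genes. Its counts are fractional, so reads shared with similar sequence elsewhere may enter them.

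**Figure D4:**
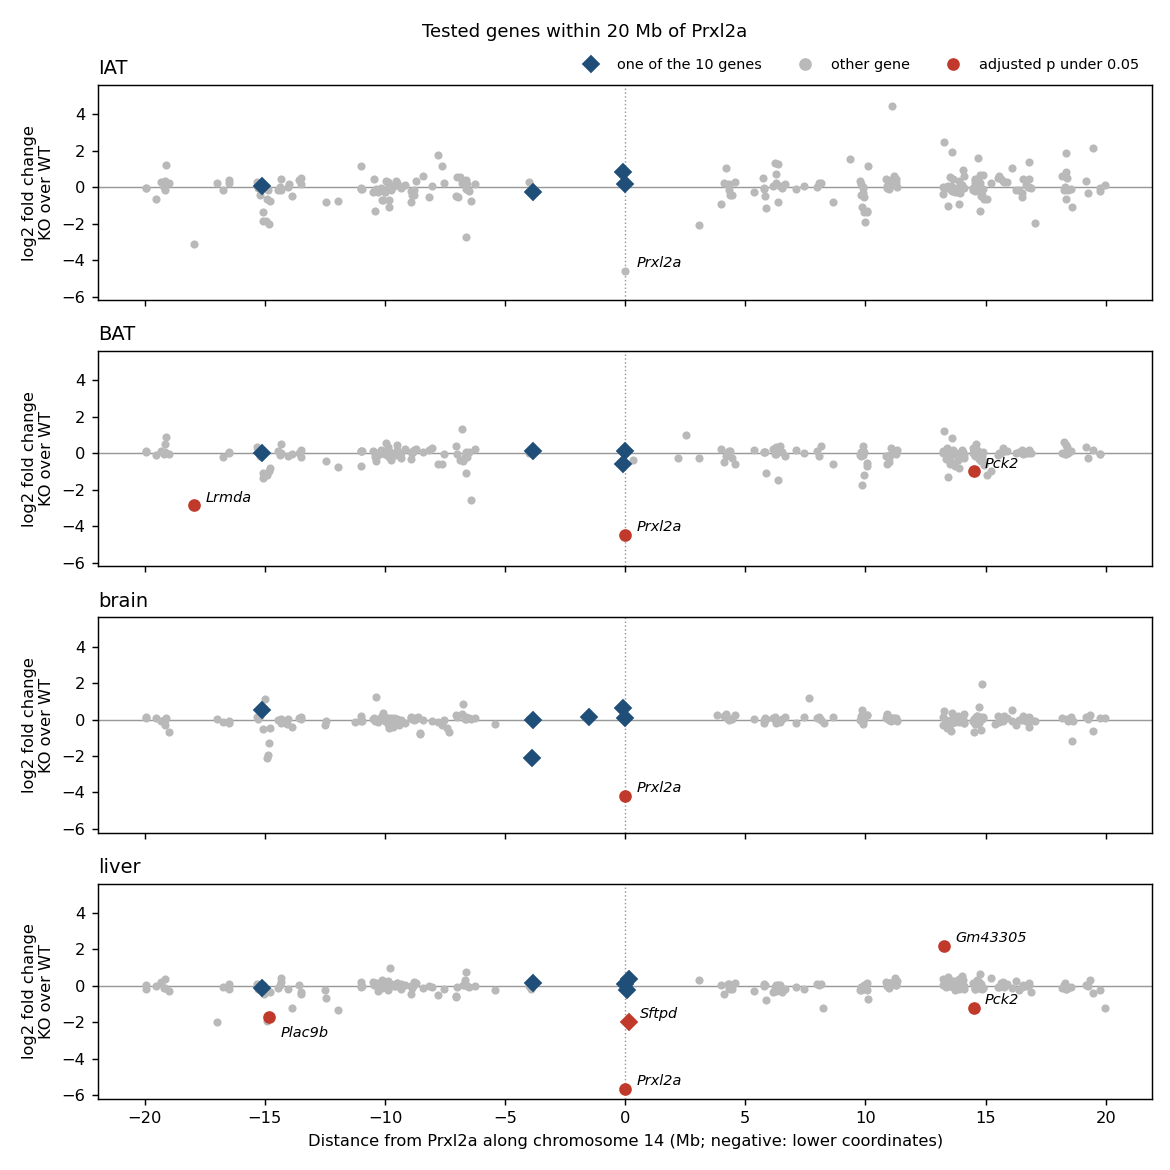
Log2 fold change of KO over WT against distance from Prxl2a along chromosome 14 in Mb for every tested gene within 20 Mb, a panel per tissue, with diamonds for the 10 genes, grey circles for the others and red for an adjusted p under 0.05. The diamonds lie within 1 log2 unit of 0 except Sftpd in liver and Cdhr1 in brain. Prxl2a itself is red at 0 Mb in BAT, brain and liver, Sftpd in liver is red close to it, and the other red points lie more than 13 Mb away.

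Genes with the most similar level across the 12 WT libraries were sought for each of the 7 genes that reached 5 TPM in some tissue, by Pearson's r of log2 CPM. As the 12 libraries are 4 tissues of 3, these values mainly repeat the tissue pattern, and they are given as a description. Mat1a was nearest to Gc (r = 0.9997), Cyp2d26 and Apom, and Mbl1 to Cyp2c37, Mbl2 and Ces2a, each a gene of hepatocytes. Nrg3 was nearest to Agbl4 (r = 0.9999), Camkv and Kcnk12, and Cdhr1 to Abl2 (r = 0.972), Insyn2b and Stk33. Ghitm was nearest to Sucla2 (r = 0.995), a subunit of the mitochondrial succinate-CoA ligase, then Apoo and Clpb, which are also mitochondrial. Tspan14 was nearest to Tbc1d13 (r = 0.987), Plekhm1 and Mgst2, and Anxa11 to Met (r = 0.983), Abca8a and Pxmp4.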

How the data were processed

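The authors deposited 1 table for the 24 libraries. Per the file headers, the authors deposited expected counts, raw estimates for each gene, and TPM values scaled within a library. The submitters' processing notes list GRCm38.p6 with RSEM 1.3.1, Bowtie2 2.3.4.3 and DESeq2 1.4.5, and no source used here names the annotation. Another 48 per-sample columns were not used. Locations came from RefSeq (GRCm38.p6), matched by gene ID for 18958 of 19015 genes.

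Expected counts were rounded and tested per tissue with edgeR 4.0.16 in R 4.3.3 (TMM, filterByExpr, quasi-likelihood F-test, Benjamini-Hochberg over all genes tested, called under 0.05). Standard errors came from the F statistic. The average change and its difference between tissues (3 degrees of freedom) used 1 fit of the 24 libraries, which does not model shared mice. DESeq2 1.42.0, limma 3.58.1 (voom, and trend fits with a pseudocount of 1 or 0.1 TPM on genes with a mean of at least 1 TPM), RLE, other filters, the replicate block and leaving out libraries were alternatives. Scripts were tested on simulated data.

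The 10 genes, the gene lists and the tests were chosen with earlier results of these data known. Named were the 10 genes, the 3 nearest on each side, called genes within 5 Mb, the nearest called gene on each side within 20 Mb, up to 3 genes with the smallest p per list, the 3 genes most like each member in WT, and markers. Adam10, Erbb4, Mbl2, Sftpa1, Lrmda, Pck2, Gm43305 and the other genes of the Plac9b block were named outside that rule, after their values were seen. Replicates are separate samples per the labels, and no 2 of them matched within sampling noise (lowest chi-square per degree of freedom 11.2). P-values measure the spread between these samples.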

Additional observations from a re-analysis of the deposited data

How the results depend on the processing

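Of 303 recomputed fold changes of the 10 genes, 294 kept their side of the threshold and either kept their sign or shifted by no more than 1 SE. A change of sign within 1 SE is thus counted among the 294. Another 8 lost the call of Sftpd in liver, all with a log2 fold change still negative. The remaining 1, Ghitm in IAT, moved past zero by more than 1 SE. The cause was not tested, except that fewer libraries or genes enter some settings. The count of called members was 0 in liver under a filter of 1 CPM in 3 libraries and under log2(TPM + 1) and log2(TPM + 0.1), where Sftpd is not tested, and 0 with all 24 libraries in 1 fit, with the replicate block and without any single library. Genes called within 5 Mb in liver were likewise 0 in each of these, and 4 within 20 Mb. In IAT the members called were 1 with all 24 libraries in 1 fit and 0 to 1 without a single library, and the genes within 5 Mb were 3 in that fit, 1 with DESeq2 and 0 to 2 without a single library, where KO replicate 2 gave 2 and WT replicate 1 gave 1. In BAT they were 1 with DESeq2, 2 within 20 Mb and 0 to 0 without a single library.

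Counts over all genes moved more. IAT had 987 with DESeq2, 7 with limma-voom, 2573 with all 24 libraries and 0 to 1760 without a single library, 1760 of them without KO replicate 2 and 192 without WT replicate 1. BAT had 467 with DESeq2, 173 with all 24 libraries, 29 and 28 on log2(TPM + 1) and log2(TPM + 0.1), and 2 to 94 without a single library (3 without KO replicate 2, 42 without KO replicate 3, 37, 5 and 2 without WT replicates 1, 2 and 3). Brain had 55 with DESeq2, 2 with limma-voom and 1 to 9 without a single library (1 without KO replicate 1 or 3, 4 without WT replicate 1 or 3). Liver had 402 with DESeq2, 218 with no filter and 58 to 103 without a single library (87 without KO replicate 1, 78, 58 and 85 without WT replicates 1, 2 and 3). The average change had 1182 with DESeq2, 314 to 2162 without a single library (highest without KO replicate 2 of IAT), and 238 without IAT, 171 without BAT and 229 without liver. The difference between tissues had 103 with RLE, 1231 with DESeq2 and 15 to 2971 without a single library (highest without the same library). Neither count of members moved in these 2 fits, and 9 of 9 members kept their call across WT tissues without any single WT library.

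Same-numbered KO and WT libraries had correlated deviations of -0.228 to 0.026 in IAT, -0.239 to -0.174 in BAT, 0.041 to 0.394 in brain and -0.072 to 0.201 in liver. In no tissue did every pair exceed 0.1, so the main fits left the number out. Brain pairs were all positive, and these correlations cannot exclude a pairing or a shared batch. Under the replicate block 1 gene passed in BAT, 4 passed in brain and 228 passed in liver, the members called in liver and the genes within 5 Mb were 0, and the difference between tissues had 24. The edgeR adjusted p of Sftpd in liver was 0.0630 and that of Lrmda in BAT was 0.101 under that block. Depth limits Sftpd, Dydc1, Dydc2 and Cdhr1 outside brain, where a library with 0 counts allows up to 3.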

Other observations

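Chromosome 14 as a whole was compared with the other chromosomes after the data were seen, as a description with no test. It held 756 genes of the table. In liver 2.37% of its tested genes were called (10 of 422), the highest share of 20 chromosomes. The others ran from 0.203% to 2.02% (9 of 445, chromosome 13) with a median of 0.922%. In the average over the 4 tissues 4.89% of its genes were called, also the highest share, against 1.84% to 4.27%. In BAT it was second with 0.891%, behind chromosome 18 with 1.5%, and in IAT edgeR called 0 genes on any chromosome. In brain it was first with 0.389%, which is 2 called genes with Prxl2a among them, ahead of chromosome 4 with 0.328%. These shares include Prxl2a itself.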
